A study of Mus musculus with 6 samples.

Results

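Tetraspanin transcripts were followed in cultured marrow of C57BL/6J mice (genotype WT), an inbred laboratory strain, grown with FLT3LG and with or without added midkine. The genes were chosen by symbol, as a set of 10 leukocyte tetraspanins: Cd63, Cd9, Cd81, Cd53, Cd37, Tspan32, Cd82, Cd151, Tspan4 and Tspan13. All 10 had a row among the 15443 gene symbols of the table, and all 10 passed the filter on low values that 13543 genes passed. The rMDK group (3 libraries, replicates 3, 4 and 5) was grown for 3 days with the human recombinant protein at 10 ng/ml, together with FLT3LG at 50 ng/ml. The control group (3 libraries, replicates 1, 2 and 4) received FLT3LG at 50 ng/ml alone for the same 3 days. FLT3LG is the cytokine that drives dendritic cell growth from marrow progenitors, and midkine is a heparin-binding growth factor that cells secrete and sense through several surface receptors. The comparison asked how midkine alters cells grown in this way. The labels call the source bone marrow cells without any sort, so the cultures held a mixture of cell types, and they leave unstated whether each replicate had its own mouse or culture. P-values therefore reflect only the spread among these libraries, part of which may be technical.

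Tetraspanins are small proteins that cross the membrane several times and bind one another and other membrane proteins laterally. In this way they gather integrins, immune receptors and proteases into patches of membrane and guide their traffic. In blood cells Cd37, Cd53 and Tspan32 are largely leukocyte or blood cell genes, while Cd9, Cd63, Cd81, Cd82 and Cd151 are expressed in many tissues. Cd63 is a classic protein of late endosomes, lysosomes and secretory granules, and Cd9, Cd63 and Cd81 are the usual surface markers of exosomes.

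Values are normalized counts from libraries of the QuantSeq 3′ kit. The kit reads each transcript near its 3′ end, so that levels do not scale with transcript length. Levels are set side by side between genes on this basis, and other differences in how well each gene is counted were not assessed. The libraries held between 5985684 and 7233960 reads. Midkine library 5 (rMDK 5) stood apart from the other 5 along the leading principal component (57.1% of the variance), with a score of 86.0 and the rest between −28.2 and 1.94, and mitochondrial ribosomal RNA took 0.377% of its reads, against 4.12 to 6.16% in the others. The values of rMDK 5 are therefore named as such, and fold changes are given with and without it.

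The promoters of the 4 genes whose rMDK values all lay above the control values (Cd63, Cd9, Cd53 and Tspan4) are shown first, with that of Cd37 beside its close relative Cd53, whose values overlapped between the groups. Each is the RefSeq window from 250 bases before to 50 bases after the start site on GRCm38.p6, read 5′ to 3′ on the strand of the gene. Capitals mark the motifs found on either strand: the GC box GGGCGG, the PU.1 motif GAGGAAGT (on the other strand ACTTCCTC) and the E-box CACGTG. The AP-1 motif TGANTCA and the TATA box TATAAA were also searched and had no match in these windows, and none of the motifs overlapped.
Cd63: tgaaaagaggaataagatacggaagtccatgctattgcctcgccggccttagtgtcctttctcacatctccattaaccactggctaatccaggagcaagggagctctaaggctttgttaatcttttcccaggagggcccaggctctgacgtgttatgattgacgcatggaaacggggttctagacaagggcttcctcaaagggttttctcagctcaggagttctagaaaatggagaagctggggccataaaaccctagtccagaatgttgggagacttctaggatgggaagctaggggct
Cd9: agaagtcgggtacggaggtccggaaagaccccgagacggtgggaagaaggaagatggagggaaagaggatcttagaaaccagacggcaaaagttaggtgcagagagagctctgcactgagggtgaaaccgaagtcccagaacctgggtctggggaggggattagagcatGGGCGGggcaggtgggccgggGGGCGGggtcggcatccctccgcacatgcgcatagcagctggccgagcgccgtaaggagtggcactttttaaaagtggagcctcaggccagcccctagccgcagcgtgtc
Cd53: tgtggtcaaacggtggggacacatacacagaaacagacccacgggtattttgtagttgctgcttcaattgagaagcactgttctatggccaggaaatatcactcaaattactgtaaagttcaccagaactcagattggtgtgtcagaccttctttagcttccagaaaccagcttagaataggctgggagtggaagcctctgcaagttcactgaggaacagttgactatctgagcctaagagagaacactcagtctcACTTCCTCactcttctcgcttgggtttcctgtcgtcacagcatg
Cd37: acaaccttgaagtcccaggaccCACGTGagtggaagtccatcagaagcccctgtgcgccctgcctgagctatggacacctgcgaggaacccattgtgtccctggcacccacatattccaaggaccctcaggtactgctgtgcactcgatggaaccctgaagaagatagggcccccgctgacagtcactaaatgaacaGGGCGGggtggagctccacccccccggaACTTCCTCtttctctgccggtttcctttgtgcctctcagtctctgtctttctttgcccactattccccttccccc
Tspan4: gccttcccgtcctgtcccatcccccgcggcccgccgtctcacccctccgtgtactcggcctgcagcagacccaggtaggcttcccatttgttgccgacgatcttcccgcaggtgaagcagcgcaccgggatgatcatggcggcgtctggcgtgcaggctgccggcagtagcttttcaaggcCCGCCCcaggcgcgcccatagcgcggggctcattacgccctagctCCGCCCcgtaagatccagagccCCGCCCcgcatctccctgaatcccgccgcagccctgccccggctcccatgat
These windows lie at chr10:128909095-128909394 (Cd63, plus strand), chr6:125494711-125495010 (Cd9, minus strand), chr3:106790100-106790399 (Cd53, minus strand), chr7:45238790-45239089 (Cd37, minus strand) and chr7:141474986-141475285 (Tspan4, plus strand). The PU.1 motif began 6 bases after the start site in Cd53 and 25 bases before it in Cd37, and no window of the other 8 genes held it, against 3.2% of all 32851 RefSeq windows. The GC box stood in 7 of the 10 windows, 3 times in that of Tspan4, against 35.7% of all windows. The Cd63 window held none of the motifs searched. That window lies inside the gene as GENCODE draws it, which starts at 128900989 on the plus strand. The sequence around the GENCODE start of Cd63 was not searched. A match is only a run of letters, and binding was not measured.

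Transcripts of 4 tetraspanins were more abundant in every rMDK library than in any control: Cd63, Cd53, Cd9 and Tspan4. The other 6 genes overlapped between the groups. No gene was called by limma with all 6 libraries, neither among the 10 tetraspanins nor among the 13543 genes tested (0%). The same 4 had an unadjusted p under 0.05, all in the direction of higher, where 10.4% of all genes did so in that direction and 9.3% in the direction of lower. Of all genes, 15.5% had every rMDK value above every control value, and 15.3% had every rMDK value below. Without rMDK 5, limma called these 4 genes higher and 0 lower, where 9.92% of all genes were called higher and 8.52% lower. edgeR on the same 5 libraries called the same 4 higher, where it called 10.5% of all genes higher. With all 6 libraries edgeR called 0 of the 10 (0.0738% of all genes) and DESeq2 called 3, Cd63, Cd53 and Cd9, all higher (3.9% of all genes with an adjusted p were called higher). The median log2 fold change over the 10 genes was 0.17, against −0.0040 over all genes tested.

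**Figure D1:**
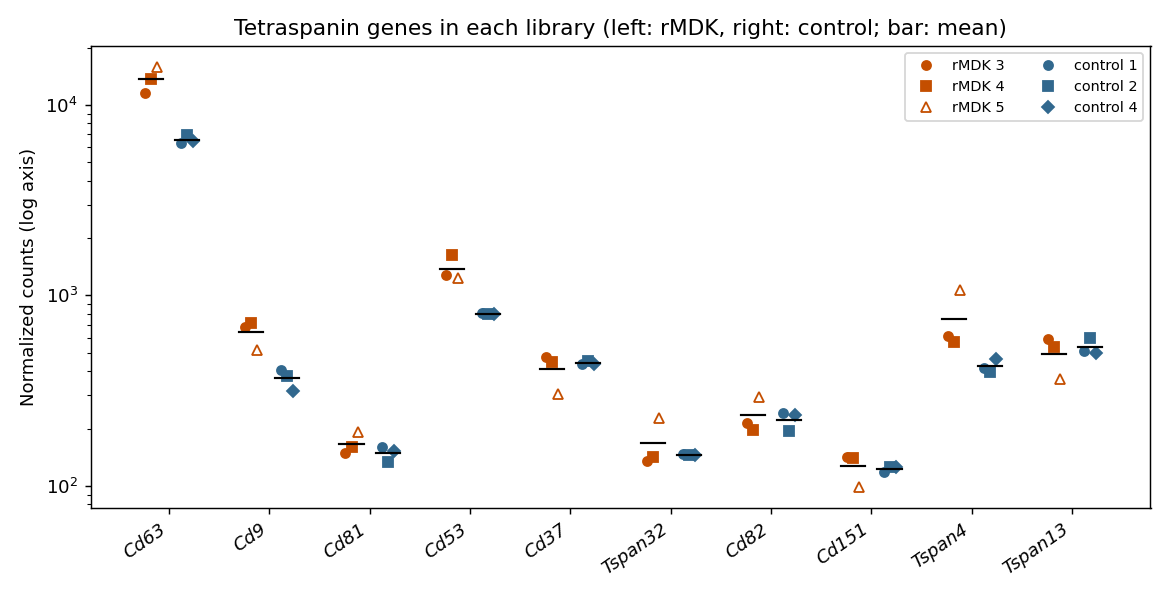
Normalized counts (log axis) of the 10 tetraspanin genes in each library, with rMDK libraries left and control libraries right of each gene's tick and a bar at the group mean. Cd63, Cd9, Cd53 and Tspan4 have every rMDK point above every control point. The open triangle, rMDK 5, is the lowest rMDK point for Cd9, Cd53, Cd37, Cd151 and Tspan13. It is the highest for Cd63, Tspan4, Cd81, Tspan32 and Cd82.

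Cd63, the tetraspanin of late endosomes, lysosomes and granules, was the most abundant of the set. It had 11561, 13699 and 15846 normalized counts in rMDK 3, 4 and 5, against 6294, 6977 and 6454 in control 1, 2 and 4. The groups did not overlap, and rMDK 5 was the highest library. The log2 fold change was 1.05 ± 0.167 SE (limma, adjusted p = 0.0757), and 0.94 without rMDK 5 (adjusted p = 3.44e-05). Cd63 took 0.187, 0.215 and 0.241% of all reads in rMDK 3, 4 and 5, against 0.102, 0.112 and 0.102% in control 1, 2 and 4. The Wilson 95% intervals, which cover counting error only, ran from 0.184 to 0.190% in rMDK 3, the lowest rMDK library, and from 0.109 to 0.114% in control 2, the highest control. Within the reads of the 10 tetraspanins, the share of Cd63 was 73.0, 75.2 and 78.6% in rMDK 3, 4 and 5, against 66.0, 68.4 and 67.1% in control 1, 2 and 4. The gene lies on chromosome 10, 128900989 to 128912822 on the plus strand of GRCm38, with no exon of another gene across its own. Its processed pseudogene Cd63-ps has a row of its own, with 19.4 ± 5.86 normalized counts in rMDK and 16.5 ± 1.90 in control libraries (SD, n = 3 each).

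Cd9 and Cd81 are close relatives that bind immunoglobulin superfamily partners and regulate cell fusion, and Cd9 is abundant on platelets and some granulocytes and macrophages. Cd9 had 684, 718 and 517 normalized counts in rMDK 3, 4 and 5, against 408, 378 and 316 in control 1, 2 and 4. The groups did not overlap, and rMDK 5 was the library nearest to the controls. The log2 fold change was 0.79 ± 0.183 SE (limma, adjusted p = 0.0938), and 0.94 without rMDK 5 (adjusted p = 5.63e-05). Cd81 had 148, 159 and 192 normalized counts in rMDK 3, 4 and 5, against 159, 134 and 152 in control 1, 2 and 4. These values overlapped, with a log2 fold change of 0.16 (95% interval −0.24 to 0.56; limma, adjusted p = 0.617), and 0.054 without rMDK 5. The ratio of Cd9 to Cd81 within a library was 4.63, 4.50 and 2.69 in rMDK 3, 4 and 5, against 2.57, 2.82 and 2.08 in control 1, 2 and 4, so that rMDK 5 lay within the control range. The 2 groups of 3 gave p = 0.2 for that ratio (two-sided exact permutation test, where 0.1 is the smallest p possible). Cd9 lies on chromosome 6 (125460266 to 125494791, minus strand) and Cd81 on chromosome 7 (143052739 to 143067934, plus strand). A processed pseudogene of Cd9, Cd9-ps, is annotated, and how reads that map to several places were handled is not given in the sources used here.

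Cd53 and Cd37 are both found on leukocytes and differ in their partners: Cd53 holds L-selectin and other receptors at the surface, and Cd37 is known in mice to stabilise the fungal receptor Clec7a (Dectin-1). Cd53 had 1275, 1620 and 1241 normalized counts in rMDK 3, 4 and 5, against 809, 800 and 797 in control 1, 2 and 4. The controls lay close together and all 3 rMDK libraries were above them. The log2 fold change was 0.77 ± 0.153 SE (limma, adjusted p = 0.0788), and 0.84 without rMDK 5 (adjusted p = 6.42e-05). Cd37 had 478, 444 and 304 normalized counts in rMDK 3, 4 and 5, against 438, 452 and 439 in control 1, 2 and 4. Only rMDK 5 lay far from the other libraries, below them, and the log2 fold change was −0.14 (95% interval −0.59 to 0.30; limma, adjusted p = 0.695), or 0.057 without rMDK 5. The ratio of Cd53 to Cd37 within a library was 2.67, 3.65 and 4.08 in rMDK 3, 4 and 5, against 1.85, 1.77 and 1.82 in control 1, 2 and 4. This ratio did not overlap between the groups (exact permutation test, p = 0.1, the smallest possible with 3 against 3). Cd53 lies on chromosome 3 (106759921 to 106790149, minus strand), and Cd37 on chromosome 7 (45233632 to 45239115, minus strand), where its last 13 exonic bases lie across the opposite-strand gene Tead2, which had at most 4.93 normalized counts in any library.

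Tspan4, which is concentrated in the retraction fibres and migrasomes that migrating cells leave behind, had 616, 567 and 1069 normalized counts in rMDK 3, 4 and 5. It had 413, 395 and 464 in control 1, 2 and 4. The groups did not overlap, but rMDK 5 lay far above the other rMDK libraries. The log2 fold change was 0.77 ± 0.243 SE (limma, adjusted p = 0.163), and 0.48 without rMDK 5, where it was called (adjusted p = 0.00592). Tspan4 (chromosome 7, 141475240 to 141493427, plus strand) shares 292 exonic bases within 500 bases of its 3′ end with Chid1 on the opposite strand, and whether the counting used strand is not given. Chid1 had 110, 153 and 248 normalized counts in rMDK 3, 4 and 5, against 102, 133 and 151 in control 1, 2 and 4. The neighbour Polr2l, which starts on the other strand within the Tspan4 promoter window, had 28.0, 38.0 and 198 normalized counts in rMDK 3, 4 and 5, against 47.2, 40.9 and 28.6 in control 1, 2 and 4. Both neighbours were thus also highest in rMDK 5. Unlike Chid1, Polr2l shares no exonic base with Tspan4 in the annotation. The part of either neighbour in the Tspan4 value was not tested.

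Cd151, the partner of laminin-binding integrins, lies 3766 bases before Tspan4 on chromosome 7 (141467392 to 141471473, plus strand). It had 142, 140 and 98.9 normalized counts in rMDK 3, 4 and 5, against 118, 126 and 125 in control 1, 2 and 4. Both other rMDK libraries lay above every control while rMDK 5 lay below every control, which left a log2 fold change of 0.029 (95% interval −0.42 to 0.47; limma, adjusted p = 0.944). It was 0.20 without rMDK 5, and was not called there (adjusted p = 0.368). With the fewest reads of the set, 109 to 147 per library, it is also the gene with the coarsest counting precision. The ratio of Tspan4 to Cd151 was 4.33, 4.04 and 10.8 in rMDK 3, 4 and 5, against 3.50, 3.14 and 3.70 in control 1, 2 and 4 (exact permutation test, p = 0.1, the smallest possible).

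Cd82, which restrains cell migration and is expressed on mouse haematopoietic stem cells, had 215, 197 and 291 normalized counts in rMDK 3, 4 and 5. It had 240, 193 and 236 in control 1, 2 and 4, a range that took in both other rMDK libraries but not rMDK 5. Its log2 fold change was 0.058 (95% interval −0.39 to 0.51; limma, adjusted p = 0.881), and −0.11 without rMDK 5. Tspan32, a tetraspanin of blood cells that affects platelet and T cell responses in mice, had 135, 143 and 228 normalized counts in rMDK 3, 4 and 5, against 147, 145 and 145 in control 1, 2 and 4. Here rMDK 5 was far above and the other rMDK libraries just below the controls (log2 fold change 0.17, 95% interval −0.34 to 0.68; limma, adjusted p = 0.686; −0.068 without rMDK 5). Tspan13 had 587, 534 and 362 normalized counts in rMDK 3, 4 and 5, against 510, 597 and 498 in control 1, 2 and 4. It resembled Cd37 in that rMDK 5 alone was low, with a log2 fold change of −0.14 (95% interval −0.61 to 0.33; limma, adjusted p = 0.720) and 0.070 without rMDK 5. Cd82 lies on chromosome 2 (93419111 to 93463140, minus strand), Tspan32 on chromosome 7 (143005046 to 143019644, plus strand), 33094 bases before Cd81, and Tspan13 on chromosome 12 (36014557 to 36042500, minus strand). The intervals of these genes and of Cd81, Cd37 and Cd151 all hold a rise of 0.3 on the log2 scale. All but that of Cd81 also hold a fall of the same size. A rise of that size is thus not excluded for any of the 6, nor a fall for any but Cd81.

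**Figure D2:**
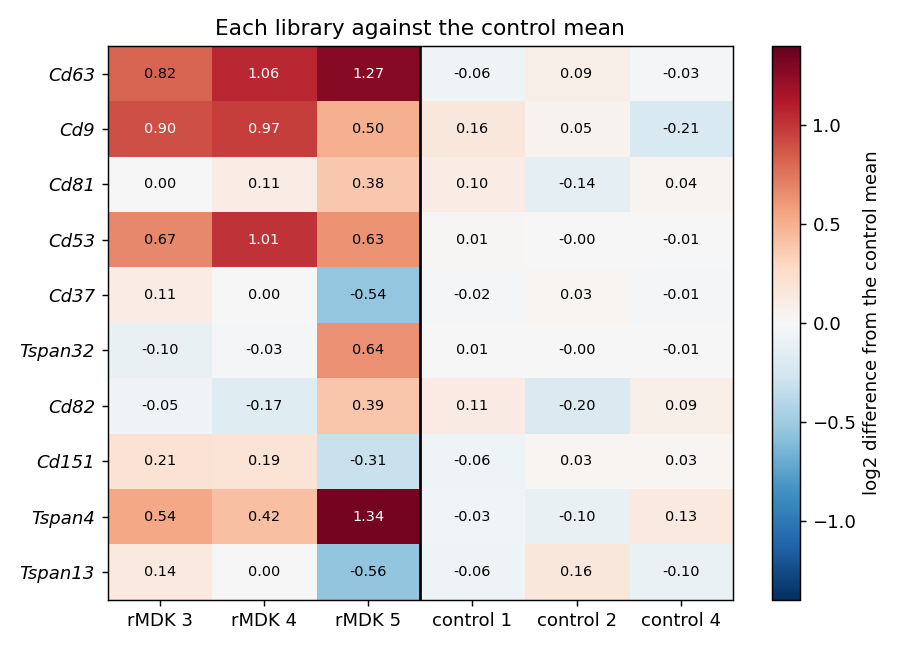
Difference of each library from the mean of the 3 controls, in log2(normalized count + 1), for the 10 tetraspanin genes, with rMDK libraries left of the line and control libraries right of it. Cd63, Cd9, Cd53 and Tspan4 are above 0.4 in all 3 rMDK libraries, while Cd37, Cd151 and Tspan13 are below −0.3 in rMDK 5 alone.

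The order of the mean levels was as follows. In rMDK libraries the means were, from high to low, 13702 ± 2143 normalized counts for Cd63, 1379 ± 210 for Cd53, 751 ± 277 for Tspan4, 640 ± 107 for Cd9, 494 ± 117 for Tspan13 and 409 ± 92.1 for Cd37 (SD, n = 3). Below these stood Cd82 with 234 ± 50.0, Tspan32 with 169 ± 51.5, Cd81 with 167 ± 23.1 and Cd151 with 127 ± 24.4. In control libraries the order was Cd63 with 6575 ± 357, Cd53 with 802 ± 6.47, Tspan13 with 535 ± 54.2, Cd37 with 443 ± 7.87, Tspan4 with 424 ± 35.6 and Cd9 with 367 ± 47.3. Cd82 followed with 223 ± 25.8, Cd81 with 148 ± 12.9, Tspan32 with 146 ± 0.915 and Cd151 with 123 ± 4.38. Neighbours whose ranges overlapped in rMDK libraries were Tspan4 and Cd9, Cd9 and Tspan13, Tspan13 and Cd37, Cd82 and Tspan32, and Tspan32 and Cd81. In control libraries they were Cd37 and Tspan4, Tspan4 and Cd9, and Cd81 and Tspan32. The 10 genes together had 15840, 18222 and 20151 normalized counts in rMDK 3, 4 and 5, against 9537, 10197 and 9625 in control 1, 2 and 4. Without Cd63 the sums were 4280, 4523 and 4304 in rMDK 3, 4 and 5, against 3242, 3220 and 3171 in control 1, 2 and 4.

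**Figure D3:**
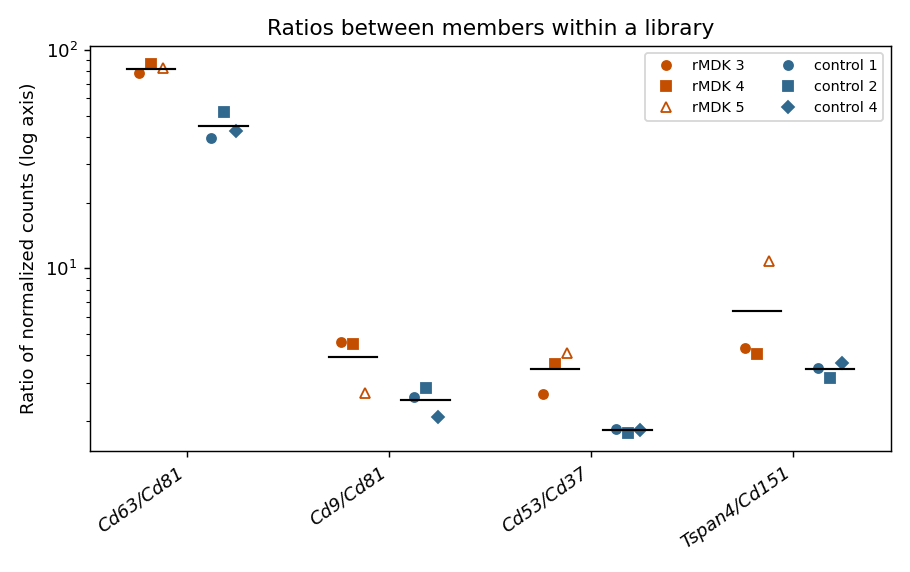
Ratio of normalized counts of 2 tetraspanins within each library (log axis), with rMDK libraries left and control libraries right of each tick and a bar at the group mean. The ratios Cd63/Cd81, Cd53/Cd37 and Tspan4/Cd151 do not overlap between the groups, and for Cd9/Cd81 rMDK 5 lies within the control range.

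A ratio within a library does not depend on the scaling between libraries. The ratio of Cd63 to Cd81, both exosome markers, was 78.2, 85.9 and 82.4 in rMDK 3, 4 and 5, against 39.6, 52.1 and 42.5 in control 1, 2 and 4 (log2 difference 0.89, exact permutation test, p = 0.1). In this ratio rMDK 5 lay between the other rMDK libraries. The ratio of Cd63 to Cd37 was 24.2, 30.8 and 52.1 in rMDK 3, 4 and 5, against 14.4, 15.4 and 14.7 in control 1, 2 and 4, also with p = 0.1 in the exact permutation test. In all 6 ratios were computed, chosen after the values were seen. After Benjamini-Hochberg adjustment over these 6, the exact permutation p was 0.12 for the 5 ratios that did not overlap and 0.2 for Cd9 to Cd81.

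The rest of the family was described from a list of 21 further tetraspanin genes, of which 15 had a row and 12 passed the filter. None was called by limma with all 6 libraries, by edgeR or by DESeq2, which gave 3 of them no adjusted p. An unadjusted p under 0.05 (limma, all 6 libraries) was found for 4 in the direction of higher and 1 lower, against 10.4 and 9.3% of all genes. The median log2 fold change was 0.15 over these 12. Without rMDK 5 limma called 1 of the 12 higher, Tspan14, and 1 lower, Tspan33. It called 9.92% of all genes higher and 8.52% lower, so these limma counts were near the shares over all genes. On the same libraries edgeR called 3 of the 12 higher and 0 lower, against 10.5% of all genes higher. With all 6 libraries 5 of the 12 were higher and 1 lower without overlap, against 15.5 and 15.3% of all genes. Tspan14 and Tspan33 belong to the TspanC8 group, which carries the protease Adam10 out of the endoplasmic reticulum and directs it to its substrates. Tspan14 had 443, 523 and 1012 normalized counts in rMDK 3, 4 and 5, against 379, 365 and 296 in control 1, 2 and 4. The groups did not overlap and rMDK 5 was far the highest (log2 fold change 0.84 ± 0.296 SE, limma, adjusted p = 0.191; 0.48 without rMDK 5, adjusted p = 0.0143). Tspan33, known in the red cell lineage and in activated B cells, had 22.2, 39.1 and 16.3 normalized counts in rMDK 3, 4 and 5, against 55.4, 47.0 and 48.3 in control 1, 2 and 4. It was the tetraspanin with every rMDK library below every control, with a log2 fold change of −1.02 ± 0.324 SE (limma, adjusted p = 0.163). Without rMDK 5 it was −0.74 (adjusted p = 0.0479), and edgeR on the same libraries did not call it (adjusted p = 0.0616). The ratio of Tspan14 to Tspan33 was 19.9, 13.4 and 61.9 in rMDK 3, 4 and 5, against 6.85, 7.76 and 6.12 in control 1, 2 and 4.

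limma called none of the other 4 TspanC8 genes under either set of libraries, and edgeR without rMDK 5 called Tspan10 (adjusted p = 0.0461), which averaged 10.9 ± 5.17 normalized counts in rMDK and 3.07 ± 2.71 in control libraries and was named after its values were seen. Tspan17 had 42.5, 40.1 and 47.2 normalized counts in rMDK 3, 4 and 5, against 27.7, 33.7 and 35.5 in control 1, 2 and 4, without overlap (log2 fold change 0.42, limma, adjusted p = 0.326; 0.35 without rMDK 5). Outside that group, Tspan3 had 208, 298 and 421 normalized counts in rMDK 3, 4 and 5, against 178, 201 and 179 in control 1, 2 and 4. Tspan31 had 98.6, 147 and 192 in rMDK 3, 4 and 5, against 97.4, 95.1 and 86.8 in control 1, 2 and 4. In both, rMDK 3 lay just above the highest control and rMDK 5 farthest from it. Their log2 fold changes were 0.67 and 0.59 with all 6 libraries, and 0.42 and 0.37 without rMDK 5 (limma, adjusted p = 0.0626 and 0.168 there). edgeR without rMDK 5 called Tspan3 higher (adjusted p = 0.0411) and did not call Tspan31 (0.126). Tspan9, a platelet tetraspanin, had 37.7, 24.3 and 51.7 normalized counts in rMDK 3, 4 and 5, against 45.1, 34.8 and 57.2 in control 1, 2 and 4. The groups overlapped, with a log2 fold change of −0.30, or −0.55 without rMDK 5 (limma, adjusted p = 0.616 and 0.166).

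**Figure D4:**
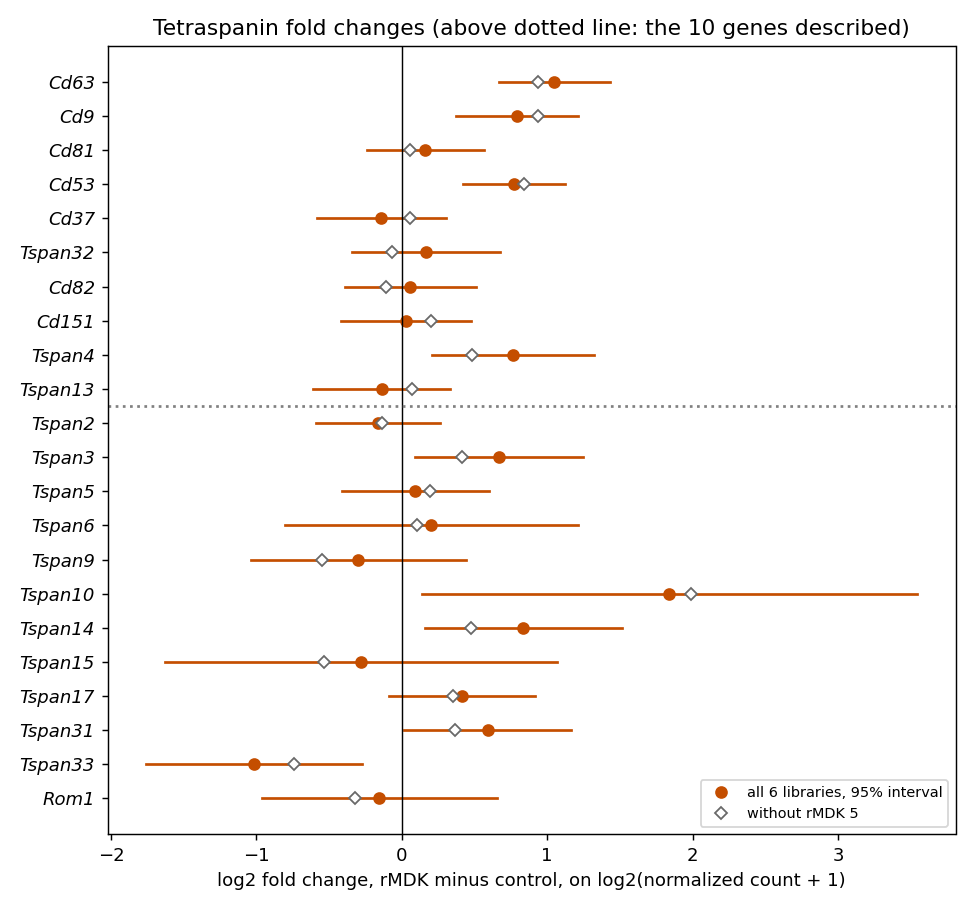
Log2 fold change of rMDK minus control on log2(normalized count + 1) for the 10 tetraspanins (above the dotted line) and the 12 other measured family genes (below it). Filled points and lines are the limma estimates with 95% intervals from all 6 libraries, and open diamonds are the estimates without rMDK 5. Intervals are unadjusted. Those of Cd63, Cd53, Cd9 and Tspan4 lie above 0, as do those of Tspan3, Tspan10, Tspan14 and Tspan31, and that of Tspan33 lies below 0.

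Proteins that tetraspanins bind or travel with were described from a list of 22 genes, of which 21 passed the filter. With all 6 libraries limma called 0 and edgeR 0, 4 had an unadjusted p under 0.05, all higher (10.4% of all genes), and DESeq2 called 3, all higher (3.9% of all genes). Without rMDK 5 limma called 8 higher and 0 lower, against 9.92 and 8.52% of all genes. The median log2 fold change over the 21 was 0.16. Clec7a, the receptor for fungal β-glucan, had 3136, 4258 and 2899 normalized counts in rMDK 3, 4 and 5, against 1304, 1527 and 1239 in control 1, 2 and 4. All rMDK libraries were well above the controls (log2 fold change 1.32 ± 0.184 SE, limma, adjusted p = 0.0639; 1.43 without rMDK 5), while its partner Cd37 overlapped. Sdcbp, which encodes syntenin, the adaptor that binds the tail of Cd63 and loads exosomes, had 3944, 5254 and 9314 normalized counts in rMDK 3, 4 and 5. It had 2429, 2600 and 2003 in control 1, 2 and 4, and rMDK 5 was again the highest (log2 fold change 1.31 ± 0.295 SE, limma, adjusted p = 0.0920; 0.97 without rMDK 5). Vcam1, an adhesion receptor found with Cd9 and Cd151 on endothelium, had 1433, 1936 and 1440 normalized counts in rMDK 3, 4 and 5, against 784, 708 and 943 in control 1, 2 and 4, without overlap (log2 fold change 0.98, limma, adjusted p = 0.0788; 1.05 without rMDK 5). Itgb2, the β2 integrin chain of leukocytes, had 854, 1016 and 1386 in rMDK 3, 4 and 5, against 661, 733 and 671 in control 1, 2 and 4, also without overlap (log2 fold change 0.63, limma, adjusted p = 0.154; 0.44 without rMDK 5). Without rMDK 5 all of Clec7a, Sdcbp, Vcam1 and Itgb2 were called higher (limma, largest adjusted p = 0.00883).

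H2-Ab1, an MHC class II chain that travels with tetraspanins in antigen-presenting cells, had 2875, 2849 and 1665 normalized counts in rMDK 3, 4 and 5, against 3491, 2956 and 2936 in control 1, 2 and 4. Its values did not overlap, but 2 rMDK libraries lay close below the lowest control (log2 fold change −0.38, limma, adjusted p = 0.376; −0.12 without rMDK 5). Adam10, the cargo of the TspanC8 group, was named after its values were seen. It had 798, 912 and 426 normalized counts in rMDK 3, 4 and 5, against 652, 700 and 638 in control 1, 2 and 4, so that rMDK 5 lay below and the other rMDK libraries above the controls (log2 fold change 0.030, limma, adjusted p = 0.959; 0.36 without rMDK 5, adjusted p = 0.0219).

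**Figure D5:**
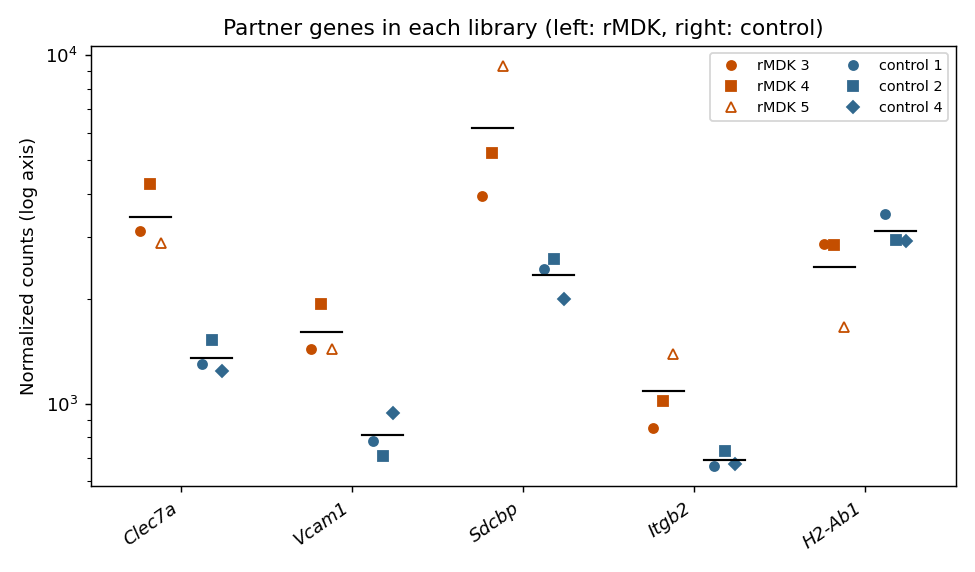
Normalized counts (log axis) of 5 tetraspanin partner genes in each library, with rMDK libraries left and control libraries right of each gene's tick and a bar at the group mean. Clec7a, Vcam1, Sdcbp and Itgb2 have every rMDK point above every control point, and H2-Ab1 lies lower in rMDK libraries by a small margin in rMDK 3 and 4.

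By the root mean square difference of centred log2 values over the 6 libraries, the genes with the pattern nearest to that of Cd63 were Tmem37 (0.0337), Fam219a (0.0623) and St6gal1 (0.0761), among 10129 genes compared. For Cd53 they were Itgb2l (0.0562), Fnip2 (0.0568) and Atp6v1c1 (0.066). The nearest to Cd9 were Gna12 (0.0851), Gadd45g (0.0886) and Rnaset2b (0.101), and to Tspan4 Sdr42e1 (0.0883), Slc35b2 (0.0889) and Abtb1 (0.0893). The other 6 tetraspanins had nearest genes at 0.0218 (Gpatch1 for Tspan13) to 0.0381 (Rpsa-ps10 for Cd82). All these genes were picked as the smallest of 10129 differences over only 6 libraries, and shared regulation was not tested.

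Tetraspanins are carried by many blood cells, and in these bulk libraries a change in the number of cells of a type cannot be told apart from a change of RNA per cell. Marker sums lay apart between the groups for several types. Of the marker genes below, counts without overlap stand beside the 15.5% of all genes that were higher and the 15.3% that were lower in this way. The sum of 10 macrophage markers was 20753, 22211 and 18617 normalized counts in rMDK 3, 4 and 5 and 12910 to 14917 in control libraries, and 7 of the 10 were higher without overlap. The sum of 10 neutrophil markers was 185601, 179951 and 193014 in rMDK 3, 4 and 5 and 125900 to 140700 in control libraries, with 7 of 10 higher without overlap. S100a8 and S100a9 made up most of this sum, with rMDK means of 84484 and 63253 and control means of 66659 and 39939. Ltf, Mmp8 and Elane overlapped between the groups. For eosinophils, basophils and mast cells, whose granules carry Cd63, the sum of the 9 markers with a row was 2771, 2801 and 1792 in rMDK 3, 4 and 5 and 990 to 1239 in control libraries, with 5 of 9 higher without overlap. The sum of 8 platelet and megakaryocyte markers, a lineage rich in Cd9 and Cd63, was 10612, 10023 and 14446 in rMDK 3, 4 and 5 and 7452 to 8409 in control libraries, with 2 of 8 higher without overlap. No marker of these 4 lists was at 0 in any library.

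Markers of conventional dendritic cells lay in the other direction. Their sum over 10 was 1083, 1032 and 1322 normalized counts in rMDK 3, 4 and 5 and 1776 to 1880 in control libraries, with 7 of 10 lower without overlap and Snx22 at 0 in rMDK 4. The sum of 10 plasmacytoid dendritic cell markers was 5535, 5226 and 5243 in rMDK 3, 4 and 5 and 6062 to 7115 in control libraries. Of the 9 that passed the filter, 4 were lower without overlap. Klk1, which did not pass, lay the other way, with 6.77, 8.44 and 10.9 in rMDK 3, 4 and 5. It had 0, 0 and 2.96 in control 1, 2 and 4. The 9 measured B cell markers summed to 3601, 3256 and 1813 in rMDK 3, 4 and 5 and to 1711 to 2340 in control libraries, so that only rMDK 5 lay within the control range. Of these 9, 3 were higher without overlap with all libraries, and limma called 8 higher without rMDK 5 (9.92% of all genes). The 9 markers of stroma and endothelium summed to 968, 942 and 1659 in rMDK 3, 4 and 5 and to 1475 to 1792 in control libraries, and again only rMDK 5 lay within the control range. Of these 9, 3 were lower without overlap with all libraries (Sparc, Col1a2 and Tagln), and limma called 4 lower and 1 higher (Kdr) without rMDK 5. Within the stroma and endothelium sum, Pecam1 had 472, 467 and 1033 normalized counts in rMDK 3, 4 and 5. It had 525, 671 and 571 in control 1, 2 and 4, so the sum of rMDK 5 rested largely on this gene. Markers of T and NK cells (4 of 8 with a row) summed to 81.2, 62.3 and 41.8 in rMDK 3, 4 and 5 and to 46.0 to 62.1 in control libraries, with Klrb1c at 0 in rMDK 4. Markers of red cells (4 of 8 with a row) summed to 110, 176 and 117 in rMDK 3, 4 and 5 and to 45.1 to 77.9 in control libraries. Only 1 of these 4 was higher without overlap, Hbb-bs, with 55.1, 80.2 and 51.7 in rMDK 3, 4 and 5. It had 13.3, 21.5 and 24.7 in control 1, 2 and 4. The part of these cell types in the values of Cd63, Cd53, Cd9 and Tspan4 was not tested.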

How the data were processed

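RNA was sequenced in 6 libraries made with the QuantSeq 3′ FWD kit, per the labels' protocols. The authors deposited a signal of 0 or more for each gene symbol, namely read counts divided by a size factor per library. The submitters' processing notes name TopHat2 2.0.10 with Bowtie 1.0.0, DESeq2 and HTSeq, FastQC 0.11.0, SAMtools 0.1.19 and the build GRCm38 (mm10). The sources used here do not give the annotation, strand setting or gene filter. Dividing each library by its smallest step (size factors 0.947 to 1.10) gave whole reads for 100% of values (tolerance 0.01 reads). A floor of 3 reads is at most 5.01e-05% of a library.

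The main test was limma 3.58.1 (trend, R 4.3.3) on log2(normalized count + 1) for genes with a mean of at least 5, two-sided, with Benjamini-Hochberg adjustment over 13543 genes and a threshold of 0.05. This scale understates changes of low genes. edgeR 4.0.16 (quasi-likelihood, TMM) and DESeq2 1.42.0 used the recovered reads. Other settings changed pseudocount, filter, scaling, variance model and libraries. The fits were tested on simulated counts. Error is SD over 3 libraries unless SE is given. Named were the 10 genes and, of the other tetraspanins and the partners, up to 6 each with the smallest p and a mean of at least 20; the values of 1 partner are not reported here. The genes and lists were chosen with earlier results of these data known. Coordinates are from GENCODE M21, promoters from RefSeq (10 of 10 genes matched). No protein sequence was used here. Figures were drawn with matplotlib 3.10.9.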

Additional observations from a re-analysis of the deposited data

How the results depend on the processing

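With all 6 libraries, limma called 0 of the 10 tetraspanins, 0 genes in all, 0 other tetraspanins and 0 partners. Leaving out each library in turn gave 0 to 4, 0 to 2497, 0 to 2 and 0 to 8 calls, where every count above 0 came from leaving out rMDK 5. edgeR without rMDK 5 called 4, 2508, 3 and 8, array weights 4, 5076, 5 and 12, and DESeq2 3, 689, 0 and 3. Over all genes edgeR with 6 libraries called 10, a pseudocount of 4 gave 10, no filter 9 and quantile normalization 16, with 0 tetraspanins among them. The cause of these differences was not tested. The number of the 10 genes without overlap was 4 to 6 over the leave-one-out sets, added after the data were seen, where 37.0 to 47.6% of all genes had none. Without rMDK 5 it was 5 higher and 1 lower (23.8% of all genes in each direction), without rMDK 3 5 higher (22.6%), and otherwise 4 higher. Cd63, Cd53, Cd9 and Tspan4 kept their direction in all 17 settings (ranges 0.88 to 1.17, 0.65 to 0.96, 0.69 to 0.94 and 0.46 to 0.94), as did Cd81 (0.054 to 0.24). The sign of the other 5 changed; leaving out each library gave −0.27 to 0.057 for Cd37, −0.11 to 0.17 for Cd82, −0.060 to 0.20 for Cd151, −0.28 to 0.070 for Tspan13 and −0.068 to 0.31 for Tspan32. With array weights, without rMDK 5, and with edgeR without rMDK 5, Cd37 had 0.014, 0.057 and 0.066, Tspan13 0.035, 0.070 and 0.076, Tspan32 −0.031, −0.068 and −0.061, and Cd82 −0.18, −0.11 and −0.11. Cd82 also had −0.041 without control 2. Cd151 had −0.0043 with quantile normalization, −0.00073 without control 1, −0.060 without rMDK 3 and −0.052 without rMDK 4. No paired analysis was possible because the groups share only replicate number 4. Depth limits the scarcest genes most.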
